A study of Mus musculus with 42 samples.

Results

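This comparison set vas deferens of AKDH mice against vas deferens of AHDK mice, 3 arrays of each, which are 6 of the 42 arrays of the series. AKDH (Hoxa9,10,11-/-d9,10,11+/-) carries 2 mutant copies of the Hoxa9,10,11 block and 1 mutant copy of the Hoxd9,10,11 block. AHDK (Hoxa9,10,11+/-d9,10,11-/-) carries 1 mutant Hoxa copy and 2 mutant Hoxd copies, so both genotypes hold the same number of mutant copies and differ in which cluster is fully mutant. The arrays were chosen by their titles, not by measured values. The other vas deferens groups, of 3 arrays each, were wild type (WT), AKO (2 mutant Hoxa copies, Hoxd wild type) and DKO (2 mutant Hoxd copies, Hoxa wild type). All mice were adults of 3 to 7 months on a mixed CD1/129 background, and all vas deferens samples came from males. Arrays of 1 genotype and tissue are named biological replicates in the labels, which tie none of them to an animal or litter. The tissue was whole vas deferens, so fewer cells of a type and less RNA per cell cannot be told apart. The mutations are constitutive alleles in the labels, with no promoter or Cre named, so an adult difference also includes whatever differed while the tract was built.

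Hox genes encode homeodomain transcription factors that lie in clusters and are expressed in nested domains along the body. The posterior members of the Hoxa and Hoxd clusters are expressed in the male duct, where they help to set the identity of its segments. The epididymis matures and stores sperm, and its lining secretes defensins, protease inhibitors and acidifying enzymes. The vas deferens, which follows it, carries sperm through a thick coat of smooth muscle and has its own set of epithelial genes. In mice without posterior Hoxa genes, vas deferens is known to take on features of epididymis.

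Values are log2 levels relative to the middle male array, because every probe set had a median of 0 over the 21 male arrays, so levels of different genes cannot be compared. The WT arrays carried the tissue's pattern: 35 of 50 smooth muscle genes were called higher in WT vas deferens than in WT epididymis (16.8% of all genes), and 25 of 52 sperm genes higher in WT epididymis (11.2%). AKDH replicate 3 stood apart. The SD of its values over probe sets was 0.473, against 0.216 to 0.314 for the other 5 AKDH and AHDK arrays. Its sperm list mean was 1.55 and its motile cilia list mean 1.13, against -0.50 to 0.33 and -0.19 to 0.04 on the other 5 arrays. AKDH replicate 2 had a skeletal muscle list mean of 1.60, against -0.45 to 0.12, and AHDK replicate 2 a smooth muscle list mean of 0.78, against -0.37 to 0.14. Results that rest on these arrays are given with and without them.

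The 2 genotypes differed in 808 of 19938 genes (4.05% of the genes tested, limma adjusted p below 0.05). Of these, 329 were higher in AKDH (1.65%) and 479 were higher in AHDK (2.4%). In all 808 the 3 AKDH arrays lay apart from the 3 AHDK arrays, as they did in 20.5% of all genes (6.55% with AKDH higher and 14% with AHDK higher). A difference of at least 1 on the log2 scale was seen in 145 called genes, 71 higher in AKDH and 74 higher in AHDK. The split by direction depended on scaling and on 1 array: with each array centred on its median it was 424 higher in AKDH to 392 higher in AHDK, and after quantile normalization 432 to 316. It also turned without AKDH replicate 3, the array that stood apart, to 360 higher in AKDH and 300 higher in AHDK. When any of the other 5 arrays was left out, more genes were higher in AHDK. With the sperm list mean as a covariate, 840 were higher in AKDH and 697 in AHDK. The median difference over all genes was -0.03. The spread came from all 15 vas deferens arrays. With only the 6 arrays of the comparison 57 genes were called, 16 higher in AKDH and 41 in AHDK. Leaving out AHDK replicate 2 left 436 calls.

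Hoxa11 told the 2 genotypes apart in the direction of the labels. Its values were -0.44, -0.71 and -0.84 in AKDH, which has no intact Hoxa copy, and 0.78, 1.68 and 0.33 in AHDK, which keeps 1. The AKDH arrays were all below the AHDK arrays, and the difference was -1.60 (SE 0.31, adjusted p = 0.0146). The WT mean was 0.99 and the AKO mean -0.52. Hoxd9 was the other called gene among the 6 targeted ones. Its values of 0.00, 0.04 and -0.09 in AKDH and -0.66, -0.70 and -0.68 in AHDK did not overlap, with a difference of 0.66 (SE 0.08, adjusted p = 0.00242). The other 4 targeted genes did not separate the genotypes. Hoxa10 differed by -0.53 (adjusted p = 0.251), Hoxd10 by -0.50 (0.252), Hoxd11 by -0.14 (0.674) and Hoxa9 by -0.07 (0.87). Hoxa9 changed sign with the setting, to 0.06 after quantile normalization. The files do not say which exons the alleles remove, so a probe set outside the mutated part would not show the loss.

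Of 24 measured neighbours and other genes of the Hoxa and Hoxd clusters, 1 was called, higher in AHDK (4.17%, beside 2.4% of all genes). This was Hoxa13, the most posterior gene of its cluster, which is intact in both genotypes. Hoxa13 was -0.07, -0.09 and 0.00 in AKDH and 0.47, 1.32 and 0.39 in AHDK, a difference of -0.78 (SE 0.20, adjusted p = 0.0485). The groups did not overlap, but the call was lost without AKDH replicate 1, 2 or 3 or AHDK replicate 2 (adjusted p from 0.0589 to 0.112). Hoxd13, its counterpart in the Hoxd cluster, differed by -0.81 and was not called (adjusted p = 0.115). None of the 18 Hoxb and Hoxc genes was called at the adjusted threshold. Hoxc10 came nearest, at 0.54 (adjusted p = 0.0681).

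The largest differences higher in AHDK were in genes that mark the WT vas deferens. The promoters of Akr1cl and Crygc are shown because both genes are among the 12 largest of this kind and only Crygd lies between them among the measured genes. Each is the 250 bases before the gene start, from RefSeq on GRCm38.p6. The capitals mark TTTAT on either strand, the core shared by many posterior Hox sites. Akr1cl lies at chr1:65032760-65033009 and Crygc at chr1:65073533-65073782, both on the minus strand.
Akr1cl: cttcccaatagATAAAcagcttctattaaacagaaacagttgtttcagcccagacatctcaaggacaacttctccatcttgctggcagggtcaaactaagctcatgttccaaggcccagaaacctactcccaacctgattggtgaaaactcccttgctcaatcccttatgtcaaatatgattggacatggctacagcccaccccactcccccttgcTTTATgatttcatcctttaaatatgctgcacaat
Crygc: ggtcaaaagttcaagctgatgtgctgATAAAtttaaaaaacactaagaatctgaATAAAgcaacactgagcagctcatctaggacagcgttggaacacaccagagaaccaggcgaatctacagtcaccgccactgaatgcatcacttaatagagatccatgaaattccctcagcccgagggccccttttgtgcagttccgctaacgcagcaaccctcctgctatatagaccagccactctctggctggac
TTTAT on either strand was in 32.3% of the 15614 promoters of measured genes, in 29.1% of those called higher in AKDH and in 28.4% of those called higher in AHDK. The longer words TTTATGG and TTTACGA, of which the first holds TTTAT, were searched on both strands. They were in 2.65% of all promoters, 1.13% of those higher in AKDH and 1.03% of those higher in AHDK, and in neither sequence shown. A match is a string of letters and not a bound site. This locus and the core were chosen after the values were seen.

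Akr1cl, an aldo-keto reductase, was -0.35, -0.34 and -0.48 in AKDH and 3.42, 3.11 and 3.45 in AHDK. The AHDK arrays lay near the WT mean of 3.86, and the difference was -3.71 (SE 0.22, adjusted p = 1.25e-05). Crygc, a gamma crystallin known from the lens, was -1.60, -1.46 and -1.69 in AKDH and 0.06, 1.15 and 1.26 in AHDK. The difference was -2.41 (SE 0.27, adjusted p = 0.00111), while Crygd, its paralogue, differed by -0.15 and was not called (adjusted p = 0.304). Near-identical copies may share probes, which the files do not settle.

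Ptprz1, a receptor-type tyrosine phosphatase, showed the largest difference of all called genes that the naming rule admits. It was -1.23, -1.07 and -1.30 in AKDH and 2.97, 3.14 and 3.41 in AHDK. The AHDK arrays lay on both sides of the WT mean of 3.03, and the difference was -4.37 (SE 0.39, adjusted p = 0.000238). Eci3, an isomerase of fatty acid oxidation, was -0.62, -0.61 and -0.80 in AKDH against 2.07, 2.53 and 3.18 in AHDK, a difference of -3.27 (SE 0.24, adjusted p = 6.46e-05). Cdkl1, a cyclin-dependent kinase-like kinase, was -0.94, -1.12 and -0.95 against 2.10, 1.78 and 1.95, a difference of -2.95 (SE 0.18, adjusted p = 1.25e-05). In each of these genes the 3 AKDH arrays sat at 1 low level and every AHDK array lay well above them. Itga2, the alpha subunit of a collagen receptor, was -0.11, -0.44 and -0.41 against 1.85, 2.23 and 2.82 (difference -2.62, adjusted p = 0.000722). Nmu, which encodes the neuropeptide neuromedin U, was -0.23, 0.00 and -0.27 against 1.98, 2.16 and 2.08 (difference -2.24, adjusted p = 6.46e-05). Abcg2, an efflux transporter, was -0.51, -0.54 and -1.05 against 1.02, 0.80 and 0.96 (difference -1.63, adjusted p = 0.00369). The urea transporter gene Slc14a2 (-2.61), the cadherin gene Cdh17 (-2.38) and the peptidylarginine deiminase gene Padi2 (-2.26) were also called higher in AHDK.

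The beta-defensin gene Defb30 was -2.16, -1.81 and -2.57 in AKDH and 0.43, 1.35 and -0.21 in AHDK, a difference of -2.70 (SE 0.44, adjusted p = 0.00631). It was the only called defensin gene of the proximal epididymis list that was higher in AHDK. Prm1 and Prm2, the protamines that pack sperm chromatin, also lay in this group, at -2.69 and -3.08. Prm2 was -1.74, -1.49 and -1.57 in AKDH and 1.72, 0.00 and 2.73 in AHDK, where replicate 2 lay well below the other AHDK arrays. Their calls (adjusted p = 0.0275 and 0.0205) were lost without AKDH replicate 1 or 2 or AHDK replicate 1 or 3, with adjusted p from 0.0663 to 0.0898 for Prm1 and from 0.0505 to 0.0586 for Prm2.

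**Figure D1:**
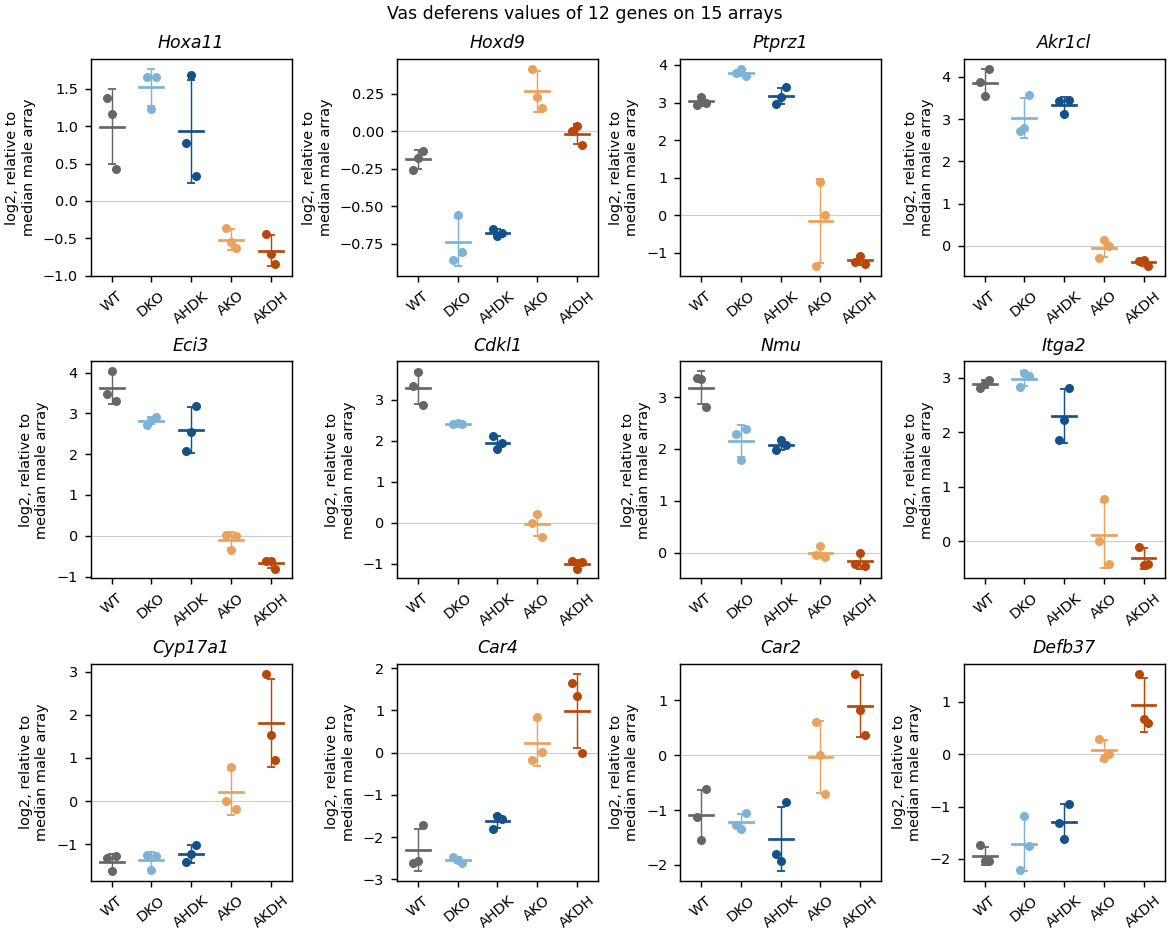
Log2 values of 12 genes on the 15 vas deferens arrays, relative to the median male array, as points by genotype, with the group mean (line) and SD (bar) of 3 arrays. In all 12 panels the AKDH points lie apart from the AHDK points, as in all 808 called genes. For Ptprz1 they lie from -1.30 to -1.07 against 2.97 to 3.41.

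The genes higher in AKDH were led by genes of the epididymal lining. Cyp17a1, the hydroxylase and lyase of androgen synthesis, was 2.95, 1.53 and 0.96 in AKDH and -1.42, -1.22 and -1.02 in AHDK. AKDH replicate 1 was the highest, all 3 AKDH arrays lay above all AHDK arrays, and the difference was 3.03 (SE 0.40, adjusted p = 0.00309). Car4, a membrane-bound carbonic anhydrase, was 1.64, 1.34 and 0.00 against -1.80, -1.50 and -1.58 (difference 2.62, SE 0.39, adjusted p = 0.00413). Car2, a cytosolic carbonic anhydrase, was 1.49, 0.82 and 0.36 against -1.80, -1.92 and -0.85 (difference 2.42, SE 0.39, adjusted p = 0.00593). In both genes AKDH replicate 3 was the lowest AKDH array and still above all AHDK arrays. Defb37, a beta-defensin, was 1.54, 0.68 and 0.60 against -1.31, -1.62 and -0.94 (difference 2.23, adjusted p = 0.00242). Spink13, a Kazal-type protease inhibitor, was 1.20, 0.86 and 0.54 against -1.15, -1.76 and -0.97 (difference 2.16, adjusted p = 0.0035). Bsph2, of a family of seminal proteins that bind sperm, was 2.29, 0.51 and 0.94 against -1.05, -0.96 and -0.72 (difference 2.16, adjusted p = 0.0051). All arrays of these genes separated by genotype, as in all 808 called genes. AKDH varied more than AHDK from array to array in Cyp17a1, Car4 and Bsph2. Malrd1 was 0.82, 0.68 and 0.13 against -1.44, -2.05 and -1.65 (difference 2.25, adjusted p = 0.00472).

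Of the other large differences on this side, several lost their call when 1 array was left out. Dapl1 differed by 2.51 (adjusted p = 0.0299) and its call was lost without AKDH replicate 1 or 3 or AHDK replicate 1, 2 or 3 (adjusted p from 0.0532 to 0.101). Wfdc13, a protease inhibitor gene of the whey acidic protein family, differed by 2.47 (adjusted p = 0.0494), and its call held only in the fit without AHDK replicate 3 (adjusted p from 0.0518 to 0.166 in the others). Sult1c2, a sulfotransferase gene, differed by 2.24 (adjusted p = 0.0202), which became 0.0581 to 0.0736 without AKDH replicate 3 or AHDK replicate 2. Pate2, expressed along the male tract, differed by 2.07 (adjusted p = 0.0249), which became 0.0509 to 0.0816 without AKDH replicate 1 or 2 or AHDK replicate 2. S100a8, a calcium-binding protein gene of neutrophils, was 0.97, 0.63 and 1.44 in AKDH and -0.80, -1.85 and -0.68 in AHDK. Its difference of 2.12 (adjusted p = 0.029) was not called without AKDH replicate 1 or 3 or AHDK replicate 1 or 2 (adjusted p from 0.0513 to 0.105). It was the only called gene among 21 genes of neutrophils and eosinophils (4.76%, beside 1.65% of all genes), whose list median was -0.13.

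In all 24 of these largest genes, 12 in each direction, the AHDK mean lay nearer to the WT mean than the AKDH mean did. The same was true of 765 of the 808 called genes (94.7%) and of 14467 of all 19938 genes (72.6%). Both means enter the rule that made these lists, so the counts are a description. Against WT, 4849 genes were called in AKDH vas deferens (24.3%), 1908 higher (9.57%) and 2941 lower (14.8%). In AHDK vas deferens 827 were called (4.15%), 414 higher (2.08%) and 413 lower (2.07%). The counts share their WT arrays. Adipocyte genes moved with both: their list mean was 0.53 to 0.99 on the AHDK arrays and 0.66 to 0.85 on the AKDH arrays, against -0.70, -0.43 and -0.09 in WT, and their part in these counts was not tested. Without WT replicate 2 the AKDH and AHDK counts were 3032 and 245. The AHDK count also fell to 431 without WT replicate 1, 452 without AHDK replicate 1 and 464 without AHDK replicate 3. Akr1cl lay -4.25 from WT in AKDH and -0.54 in AHDK. For Car4 these differences were 3.29 and 0.67. The AHDK differences of Akr1cl and Car4 were not called. Cdkl1 and Eci3, also among the largest genes, were called lower than WT in AHDK, at -1.34 (adjusted p = 0.00303) and -1.01 (0.0367).

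Genes that tell WT vas deferens from WT epididymis separated AKDH from AHDK as a group. They were chosen by the difference between the WT tissues, with an adjusted p below 0.01 and a log2 difference of at least 2. That comparison called 28.1% of all genes, 11.2% higher in epididymis and 16.8% higher in vas deferens. The group means came from WT arrays alone. The spread behind the adjusted p also drew on mutant male arrays, among them the AKDH and AHDK arrays, so the choice was not fully independent of them. Of the 84 vas-high genes, 48 were called higher in AHDK, beside 2.4% of all genes, and 1 higher in AKDH. The median difference was -0.996, against -0.03 over all genes, and 80 of the 84 lay below 0, as did 60.5% of all genes. Their mean level was -0.30, -0.21 and -0.54 on the AKDH arrays and 0.78, 0.85 and 0.84 on the AHDK arrays, so every AHDK array was above every AKDH array. Without AKDH replicate 1 the median was -1.13, and without AKDH replicate 3 it was -0.90. Members called higher in AHDK include Ptprz1, Akr1cl and Nmu, the transcriptional coactivator gene Eya1 (-1.52) and the zinc transporter gene Slc39a8 (-2.12). The exception was Krt4, a keratin of stratified epithelia, at 1.46, 1.23 and 1.20 in AKDH and 0.00, -0.14 and 0.21 in AHDK (difference 1.27, adjusted p = 0.00949).

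Of the 216 epididymis-high genes, 51 were called higher in AKDH, beside 1.65% of all genes, and 1, Prm1, higher in AHDK. The median difference was 0.78, and 175 of the 216 lay above 0, as did 39.5% of all genes. Their mean level was 0.21, 0.14 and 0.30 in AKDH and -0.59, -0.83 and -0.05 in AHDK. AHDK replicate 3 lay between the other AHDK arrays and the AKDH arrays, and the groups did not overlap. The number called changed when single arrays were left out. It was 31 without AKDH replicate 1, 32 without AHDK replicate 1 and 27 without AHDK replicate 2. Medians were from 0.60 to 0.75 in these fits. The list holds 7 genes of the sperm list, whose mean was high on AKDH replicate 3. Without that array the median was 0.71, with 45 called, and with the sperm list mean as a covariate it was 0.75, with 71 called. Members called higher in AKDH include Cyp17a1, Car2, Car4, the ceramide synthase gene Cers4 (1.51) and the cytochrome gene Cyp2j11 (1.83). Of the 12 largest genes higher in AKDH, 11 were epididymis-high, and of the 12 largest higher in AHDK, 10 were vas-high. The lists hold 216 and 84 of the 19938 genes. The lists and the largest genes were both picked for large differences, so these counts are a description.

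**Figure D2:**
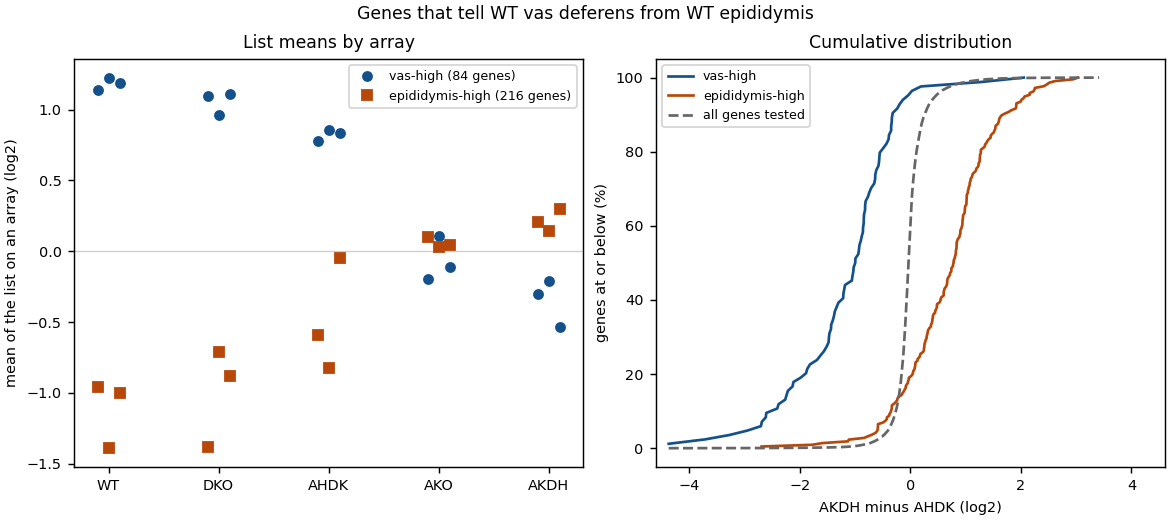
Left, mean log2 value of the 84 vas-high and 216 epididymis-high genes on each of the 15 vas deferens arrays. Right, the share of genes (%) at or below a given AKDH minus AHDK difference (log2), for both lists and for all genes tested. The vas-high median is -0.996 and the epididymis-high median 0.78, and the WT arrays in the left panel were used to choose the lists.

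A list of genes known from the proximal epididymis held calls in both directions. Among 51 genes, 4 were called higher in AKDH (7.84%, beside 1.65% of all genes) and 3 higher in AHDK (5.88%, beside 2.4%). The list median was 0.00. The 4 were Defb37, Wfdc13, the ribonuclease gene Rnase9 (2.05) and the defensin gene Defb38 (2.01), and the 3 were Defb30, Bmyc (-0.80) and the amine oxidase gene Aoc1 (-1.45). In the WT tissues of this series the 4 were higher in epididymis, by 5.20 to 5.98, while Defb30, Bmyc and Aoc1 were higher in vas deferens, at -3.54, -1.34 and -1.30 as WT epididymis minus WT vas deferens. Defb30 is 1 of the 84 vas-high genes. Rnase9 was 0.00, 0.33 and -0.05 in AKDH and -2.34, -2.86 and -0.66 in AHDK, where replicate 3 lay nearest to AKDH. The calls of Rnase9 and Defb38 (adjusted p = 0.0262 and 0.0237) held only in the fit without AHDK replicate 3, with adjusted p from 0.0515 to 0.088 and from 0.0515 to 0.0908 in the others. Rnase9 and Defb38 were named after their values were seen, as were Slc39a8 above and Atp6v1g3, Lgr4, Wfdc11, Svs5, Svs6, Plac8 and Chst10 below.

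Acid, water and ion transport genes had 4 members of 55 called higher in AKDH (7.27%, beside 1.65% of all genes). The 1 called higher in AHDK was 1.82%, beside 2.4%, and the list median was 0.02. Besides Car2 and Car4, the proton pump subunit genes Atp6v1b1 and Atp6v1g3 were higher in AKDH. These subunits mark the clear cells that acidify the epididymal lumen. Atp6v1b1 was 0.76, 0.10 and 0.42 in AKDH and -0.70, -0.62 and -0.29 in AHDK (difference 0.96, adjusted p = 0.00906). Atp6v1g3 differed by 1.58 (adjusted p = 0.0358) and lost its call without AKDH replicate 1 or 3 or AHDK replicate 1 or 2 (adjusted p from 0.0783 to 0.109). The widely expressed pump subunit gene Atp6v1e1 was higher in AHDK, at -0.35 (adjusted p = 0.0116).

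Protease inhibitor genes had 3 of 42 members called higher in AKDH (7.14%, beside 1.65% of all genes). None was called higher in AHDK, beside 2.4%, and the median was 0.02. The 3, Eppin, Wfdc9 and Wfdc13, lie in a chromosome stretch that also holds seminal vesicle secretory genes. Of 25 measured genes from Svs3a to Wfdc3, a stretch chosen after the values were seen, 18 lay above 0 and 4 were called, the fourth being Wfdc11 (1.05). Eppin, an inhibitor on the sperm surface, was 0.53, 0.44 and 0.00 in AKDH and -2.53, -2.27 and -0.22 in AHDK. AHDK replicate 3 lay just below AKDH replicate 3, and the call (difference 2.00, adjusted p = 0.0337) held only without that AHDK array (adjusted p from 0.0502 to 0.12 in the other fits). Wfdc9 (1.04) behaved alike, with adjusted p = 0.0413 in the full fit and 0.0819 to 0.139 in the 5 fits that lost it, and Wfdc11 lost its call in 4 of 6 (0.0888 to 0.107), without AKDH replicate 1 or 2 or AHDK replicate 1 or 2. Seminal vesicle and prostate genes had 2 of 24 members called, Eppin and Pate2, both higher in AKDH (8.33%). Their list means ran from 0.33 to 0.91 in AKDH and were -0.64, -0.41 and 0.29 in AHDK. Svs5, a major secretory protein of the seminal vesicle, differed by 3.42 and was not called (adjusted p = 0.315), and Svs6 by 1.53 (adjusted p = 0.194). The part of attached gland tissue in these values was not tested.

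Among 32 steroid synthesis and response genes, 2 were called in each direction, 6.25% each. Over all genes the shares were 1.65% higher in AKDH and 2.4% higher in AHDK. Cyp17a1 and Greb1 (0.73, adjusted p = 0.0135) were higher in AKDH. The protease gene Tmprss2, known as an androgen target, was -0.34, -0.13 and -0.15 in AKDH and 0.77, 0.50 and 0.87 in AHDK (difference -0.92, adjusted p = 0.00685). Cyp7b1, a steroid hydroxylase gene, was lower in AKDH by -0.81 (adjusted p = 0.0418), a call lost in every fit that left out an array other than AHDK replicate 3 (adjusted p from 0.0579 to 0.143). Of 15 aldo-keto reductase genes, 3 were called higher in AHDK (20%). Besides Akr1cl these were Akr1b10 (-0.46, adjusted p = 0.027) and Akr1a1 (-0.16, adjusted p = 0.0464), both lost when single arrays were left out. Akr1b10 lost its call without AKDH replicate 1 or 3 or AHDK replicate 1 or 2 (0.0584 to 0.0777), and Akr1a1 without any of the 6 arrays (0.0576 to 0.112).

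In the Wnt and BMP lists the calls of signalling genes went in both directions. In the Wnt pathway, 3 of 62 genes were called higher in AKDH (4.84%, beside 1.65% of all genes). Another 2 were called higher in AHDK (3.23%, beside 2.4%). The list median was -0.11, and -0.001 without AHDK replicate 2. The 3 included Axin2 and Znrf3, which are induced by Wnt signalling and restrain it. Axin2 was 0.37, 0.23 and -0.04 in AKDH and -0.89, -0.81 and -0.59 in AHDK (difference 0.95, SE 0.13, adjusted p = 0.00309). Znrf3 was 0.71, 0.54 and 0.73 against -0.58, -0.10 and -0.25 (difference 0.96, SE 0.12, adjusted p = 0.00249). The AKDH and AHDK arrays of both genes did not overlap. The R-spondin receptor gene Lgr4 (0.61, adjusted p = 0.0332) lost its call without AKDH replicate 1 or 2 or AHDK replicate 2 or 3 (0.0655 to 0.118). Fzd4, a Wnt receptor gene, and Tcf7l2, a transcription factor of the pathway, were higher in AHDK by -0.58 and -0.55. Fzd4 lost its call without AKDH replicate 2 or 3 or AHDK replicate 1 or 3 (0.0512 to 0.064) and Tcf7l2 without AKDH replicate 2 or 3 or AHDK replicate 1 or 2 (0.0525 to 0.0598).

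Of 54 BMP and TGF-beta genes, Bmpr1b was called higher in AKDH, 1.85% beside 1.65% of all genes. Id4 and Smad7 were called higher in AHDK, 3.7% beside 2.4%. Bmpr1b, a BMP receptor gene, was 0.22, 0.20 and -0.03 in AKDH and -0.84, -0.77 and -0.56 in AHDK (difference 0.86, adjusted p = 0.00472). Id4, a target of BMP signals, was -0.18, -0.09 and -0.24 against 0.84, 1.02 and 0.38 (difference -0.92, adjusted p = 0.00673), and Smad7, an inhibitory Smad, differed by -0.62 (adjusted p = 0.0135). The receptor was thus higher in AKDH and the 2 response genes higher in AHDK. Shh, the hedgehog ligand, was 0.32, 0.30 and 0.40 in AKDH and -0.35, -0.61 and 0.00 in AHDK (difference 0.66, adjusted p = 0.0256) and was the 1 called gene of 15 in its pathway. Its call held only without AHDK replicate 3 (0.0576 to 0.0863 in the other fits). Fgf12 was the 1 called gene of 44 in the FGF list (0.80, adjusted p = 0.0212), lost without AKDH replicate 1 or 2 or AHDK replicate 1 or 2 (0.0543 to 0.0773). No gene of 33 in the retinoic acid list was called at the adjusted threshold.

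Of 32 tract patterning factors, 2 were called, both higher in AHDK (6.25%, beside 2.4% of all genes). Eya1, a coactivator needed in urogenital development, was 0.04, -0.22 and -0.19 in AKDH and 1.13, 2.18 and 0.88 in AHDK, near the WT mean of 1.59. The difference was -1.52 (SE 0.32, adjusted p = 0.022), which became 0.0549 to 0.0639 without AKDH replicate 2 or 3 or AHDK replicate 2. Pax8, a paired-box factor of the developing ducts, differed by -0.52 (adjusted p = 0.0157), which became 0.0514 to 0.0526 without AKDH replicate 2 or AHDK replicate 1. Among 53 keratin, claudin and epithelial genes, Krt4 and Krt14 were called higher in AKDH (3.77%, beside 1.65%) and Grhl1 higher in AHDK (1.89%). Krt14, a keratin of basal cells, differed by 0.60 (adjusted p = 0.0469) and lost its call without any of the 6 arrays (0.0541 to 0.137). Grhl1, an epithelial transcription factor, was 0.01, -0.19 and -0.43 against 0.60, 0.42 and 0.52 (difference -0.72, adjusted p = 0.0113).

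Smooth muscle genes lay mostly lower in AKDH, and few of them passed the test. Of 50 genes, 44 had a difference below 0, against 60.5% of all genes. The list median was -0.54, and 2 were called higher in AHDK, beside 2.4% of all genes, a share near the background. Des, the intermediate filament of muscle, was -0.32, -0.31 and -0.54 in AKDH and 0.23, 0.69 and 0.00 in AHDK (difference -0.70, adjusted p = 0.0439). Actg2, an actin of visceral smooth muscle, was -0.29, -0.46 and -0.46 against 0.20, 0.59 and 0.09 (difference -0.70, adjusted p = 0.0394). AHDK replicate 2 was the highest array in both genes, and both calls were lost in every fit that left out an array other than AHDK replicate 3 (0.0702 to 0.128 for Des and 0.063 to 0.132 for Actg2). The list mean was 0.14, 0.78 and -0.06 in AHDK and 0.01, -0.19 and -0.37 in AKDH, so the groups overlapped, and the list median was -0.27 without AHDK replicate 2. Collagen and matrix genes showed 2 of 72 called higher in AHDK, Thbs1 and Col8a1, with a median of -0.19, or -0.06 without AHDK replicate 2. Thbs1, a matrix glycoprotein gene, was -0.61, -0.30 and -0.33 in AKDH and 0.43, 0.81 and 0.47 in AHDK (difference -0.98, adjusted p = 0.00488). Col8a1 differed by -0.39 (adjusted p = 0.0211), which became 0.0535 to 0.0789 without AKDH replicate 2 or 3 or AHDK replicate 2 or 3.

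Fat and skeletal muscle around the duct could enter such samples, and their markers were measured. None of 30 adipocyte genes was called between the genotypes at the adjusted threshold, and the list means were 0.85, 0.69 and 0.66 in AKDH and 0.69, 0.99 and 0.53 in AHDK. No skeletal muscle gene of 32 was called either. The skeletal muscle median of 0.39 became -0.04 without AKDH replicate 2. With the means of both lists as covariates 627 genes were called. Of 52 sperm genes, 3 were called higher in AHDK (5.77%, beside 2.4% of all genes), Prm1, Prm2 and the spermatid kinase gene Tssk6. Tssk6 differed by -0.31 (adjusted p = 0.023) and lost its call without AKDH replicate 2 or 3 or AHDK replicate 1 or 3 (0.0576 to 0.0689). The sperm list median of 0.36 became -0.16 without AKDH replicate 3, and that of motile cilia genes changed from 0.25 to -0.08. No cilia gene of 47 was called. With the sperm list mean as a covariate 1537 genes were called, among them all of the 808, and the vas-high median was -0.98.

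Immune genes that passed the test were mostly higher in AHDK. Of 38 interferon response genes, 34 had a difference below 0, against 60.5% of all genes, and 3 were called higher in AHDK, beside 2.4%. The list had means of -0.02, 0.09 and -0.17 in AKDH and 0.23, 0.29 and 0.20 in AHDK. Irgm1, an interferon-induced GTPase, was -0.24, 0.07 and -0.16 against 0.51, 0.34 and 0.47 (difference -0.55, adjusted p = 0.0113). The viral RNA sensors Ddx58 (-0.65, adjusted p = 0.0134) and Ifih1 (-0.58, adjusted p = 0.0469) were the others. Ddx58 lost its call without AHDK replicate 2 (0.0538) and Ifih1 without any of the 6 arrays (0.0525 to 0.133). Of 43 chemokine genes, Cxcl16 was -0.14, 0.00 and -0.34 in AKDH and 0.46, 0.70 and 0.52 in AHDK (difference -0.73, adjusted p = 0.00958). Ccl5 also passed (-0.86, adjusted p = 0.0479) but not without AKDH replicate 1 or 3 or AHDK replicate 1 or 2 (0.101 to 0.155). Among 32 lymphocyte and mast cell genes 2 were called higher in AHDK, the cytotoxic granule gene Nkg7 (-0.58, adjusted p = 0.0172) and the mast cell protease gene Mcpt4 (-1.25, adjusted p = 0.0455). Nkg7 lost its call without AKDH replicate 1 or AHDK replicate 2 (0.052 to 0.0682), and Mcpt4 in every fit that left out an array other than AHDK replicate 3 (0.0599 to 0.153).

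In the remaining lists, counts stand beside 1.65% of all genes called higher in AKDH and 2.4% called higher in AHDK. Of 46 epithelial genes of the cauda epididymis and vas deferens, 5 were called higher in AKDH (10.9%) and 2 higher in AHDK (4.35%). The 5 were Car2, Car4, Atp6v1b1, Atp6v1g3 and Krt14, all counted in the transport or keratin lists above. The 2 were Akr1cl and Abcg2. The list median was 0.11, or 0.055 without AHDK replicate 1 and 0.186 without AHDK replicate 3. Of 39 neuropeptide and nerve genes, 33 lay below 0, with a list median of -0.12. In this list 1 gene was called higher in AKDH and 2 higher in AHDK. The first was Dbh, the enzyme that makes noradrenaline (0.57), lost without AKDH replicate 1 or 3 or AHDK replicate 2 (0.0518 to 0.0666). The others were Nmu and the guidance gene Slit2 (-0.68), which was lost without any AKDH array or AHDK replicate 1 or 2 (0.0578 to 0.143). Endothelial genes had 1 of 18 called higher in AKDH, which was Esam, an endothelial adhesion gene (0.98, adjusted p = 0.00767). Most of that list went the other way: 12 of the 18 lay below 0, beside 60.5% of all genes. Its median was -0.08, or 0.044 without AHDK replicate 2. Macrophage genes had 1 of 38 and complement genes 1 of 23 called, both higher in AHDK. These were the cytokine receptor gene Flt3 (-0.38, adjusted p = 0.0443) and the lectin pathway protease gene Masp1 (-0.55, adjusted p = 0.0485). Flt3 lost its call without any AKDH array or AHDK replicate 2 or 3 (0.059 to 0.143), and Masp1 without any AKDH array or AHDK replicate 1 or 2 (0.0689 to 0.105). No gene was called at the adjusted threshold among 27 relaxin and insulin-like genes, 33 cell cycle genes and 24 genes of RNA quality, whose medians were -0.09, 0.12 and 0.03. The cell cycle median was -0.007 without AHDK replicate 2 and 0.313 without AHDK replicate 1. The relaxin median was -0.010 without AHDK replicate 2 and the RNA quality median 0.085 without AHDK replicate 1.

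**Figure D3:**
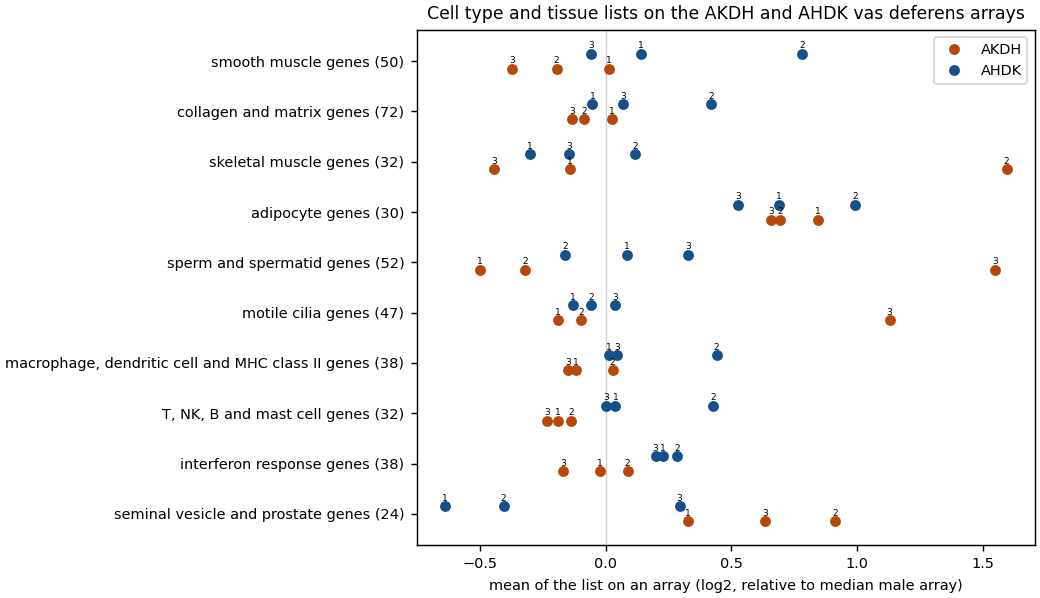
Mean log2 value of 10 cell type and tissue lists on the 3 AKDH and 3 AHDK vas deferens arrays, numbered by replicate, with list sizes in brackets. AKDH replicate 3 stands apart in the sperm list (1.55) and the cilia list (1.13), AKDH replicate 2 in the skeletal muscle list (1.60) and AHDK replicate 2 in the smooth muscle list (0.78).

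The same contrast of clusters was also measured without the additional mutant copy, as AKO minus DKO, on 6 arrays that are not in the main comparison. It called 3551 genes (17.8%), 1271 higher in AKO (6.37%) and 2280 higher in DKO (11.4%). Leaving out AKO replicate 1 gave 2208, AKO replicate 3 gave 2210 and DKO replicate 1 gave 2078. Of the 329 genes higher in AKDH, 322 (97.9%) had a positive AKO minus DKO difference, against 41.3% of all genes, and 231 (70.2%) were called higher in AKO. Those 231 are 18.2% of the genes called higher in AKO, and 2 of the 329 were called in the opposite direction. Of the 479 genes higher in AHDK, 458 (95.6%) had a negative difference, against 58.7% of all genes, and 345 (72.0%) were called higher in DKO. Those 345 are 15.1% of the genes called higher in DKO, and 1 of the 479 was called the other way. The 2 contrasts share the estimate of spread but no array.

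For the genes higher in AKDH, the median difference was 0.64 in the main contrast and 0.53 in AKO minus DKO. For those higher in AHDK, the medians were -0.51 and -0.50. All 24 of the largest genes had the same sign in both contrasts, and 19 were called in both. Ptprz1 differed by -3.95 (adjusted p = 0.000161) between AKO and DKO, Akr1cl by -3.08 (4.25e-05), Cdkl1 by -2.46 (4.25e-05) and Car4 by 2.77 (0.000773). Dapl1 was the furthest from its value in the main contrast, at 0.21 in AKO minus DKO (adjusted p = 0.859) against 2.51. The 19 calls include Cyp17a1, Defb30, Malrd1, Prm1 and Prm2, which were lost when single AKO or DKO arrays were left out. Cyp17a1 lost its call without AKO or DKO replicate 2 (0.0644 to 0.0705), and Malrd1 without AKO replicate 2 or 3 or DKO replicate 1 (0.101 to 0.133). Defb30 lost it without replicate 1 or 2 of either group (0.103 to 0.173), Prm1 without AKO replicate 1 or 3 or DKO replicate 1 or 2 (0.0662 to 0.115) and Prm2 in every fit except that without DKO replicate 3 (0.0889 to 0.17).

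Vas-high and epididymis-high genes followed the same order there. The counts below stand beside 11.4% of all genes called higher in DKO and 6.37% called higher in AKO. The vas-high list had a median of -1.15 between AKO and DKO, with 55 of 84 called higher in DKO, and the epididymis-high list a median of 1.02, with 112 of 216 called higher in AKO. The vas-high list means were -0.20, 0.10 and -0.11 in AKO and 1.09, 0.96 and 1.11 in DKO. Smooth muscle genes had 28 of 50 called higher in DKO, with a median of -0.63. Of 30 adipocyte genes, 14 were called higher in AKO and 1 higher in DKO, with a median of 0.72, while their median between AKDH and AHDK was -0.02.

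The test of the difference between the 2 contrasts called 26 genes (0.13%), 8 positive (0.0401%) and 18 negative (0.0903%). None of the 24 largest genes was among them. Cwc22, a splicing factor gene, was near 0 in AKDH (0.14, 0.20 and -0.23), in AHDK (0.09, 0.05 and 0.03) and in AKO, and was 1.51, 1.36 and 1.53 in DKO. Its difference of contrasts was 1.39 (SE 0.14, adjusted p = 0.00482), and it was called in each of the 12 fits that left out 1 array. B3galt2, a galactosyltransferase gene, was 0.14, 0.21 and 0.32 in AKDH, -0.66, -0.33 and -0.35 in AHDK, -2.96, -2.37 and -2.60 in DKO and -3.15, -3.25 and -2.53 in WT. Its difference of contrasts was -2.07 (adjusted p = 0.0338), and its call was lost without any AKO array, DKO replicate 1 or 3, AKDH replicate 1 or AHDK replicate 1 or 3 (0.058 to 0.101). The number of genes called ran from 2 to 44 when single arrays were left out. It was 4, 2 and 3 without AKO replicates 1, 2 and 3, 2, 7 and 2 without the DKO replicates, 3, 31 and 44 without the AKDH replicates and 2, 40 and 2 without the AHDK replicates. Both genes were singled out after their values were seen.

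**Figure D4:**
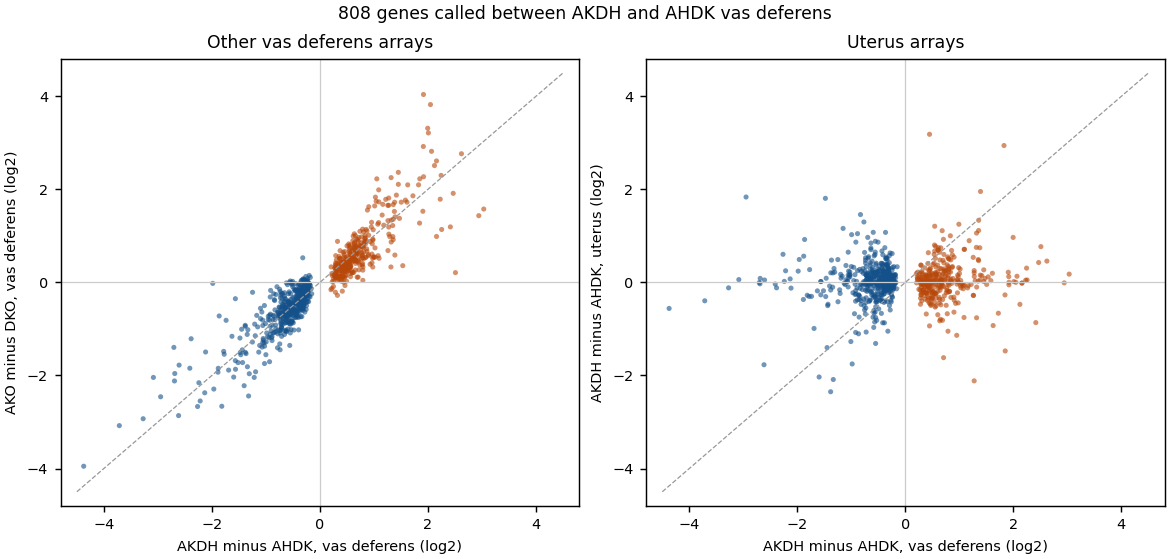
The 808 called genes, with their AKDH minus AHDK difference in vas deferens (log2, horizontal) against AKO minus DKO in vas deferens (left) and AKDH minus AHDK in uterus (right), where the dashed line marks equal differences. On the left 322 of 329 genes higher in AKDH and 458 of 479 higher in AHDK keep their sign, and on the right 184 and 217.

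Uterus of the same 2 genotypes, from females in diestrus, served to compare tissues. There 343 genes were called (1.72%), 157 higher in AKDH (0.787%) and 186 higher in AHDK (0.933%), a number that single arrays moved: 106, 588 and 111 without AKDH uterus replicates 1, 2 and 3, and 14, 50 and 39 without the AHDK uterus replicates. Of the 329 genes higher in AKDH vas deferens, 184 (55.9%) were higher in AKDH uterus too, against 54.5% of all genes. Of the 479 higher in AHDK vas deferens, 217 (45.3%) were higher in AHDK uterus, against 45.5%. The vas-high and epididymis-high lists had uterus medians of -0.01 and 0.06. The difference between the tissues was called in 918 genes (4.6%), 369 positive (1.85%) and 549 negative (2.75%), and in 523 without AHDK uterus replicate 1 and 588 without AHDK uterus replicate 3. It was called in 19 of the 24 largest genes. These were chosen by their vas deferens difference, which enters this contrast, so the count is a description. Hoxa11 differed by -2.03 in uterus (adjusted p = 0.0922), and its difference between tissues was 0.44 (SE 0.67, adjusted p = 0.754).

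A total of 28 genes were called in both tissues, 3.47% of the 808, beside 1.72% of all genes called in uterus. Of the 28, 14 had the same sign and 14 had opposite signs. Cdkl1 was higher in AHDK vas deferens and higher in AKDH uterus (1.84, adjusted p = 0.0198), and the difference of -4.78 between tissues was called (adjusted p = 1.26e-07). Axin2 was higher in AKDH vas deferens and lower in AKDH uterus (-1.14, adjusted p = 0.0351), with a difference of 2.09 (adjusted p = 7.81e-05). Both uterus calls were lost in most fits that left out 1 array. Cdkl1 lost its call without AKDH uterus replicate 1 or any AHDK uterus replicate (0.057 to 0.0865), and Axin2 also without AKDH uterus replicate 3 (0.0701 to 0.157). Plac8 was lower in AKDH in both tissues, by -1.33 in vas deferens (adjusted p = 0.00016) and -2.09 in uterus (0.00264), and kept both calls whichever array was left out. Thbs1 was lower in AKDH uterus as well (-1.75, adjusted p = 0.0288), a call lost without AKDH uterus replicate 1 or 3 or any AHDK uterus replicate (0.0671 to 0.142). Chst10, a sulfotransferase gene, was higher in AKDH in both (1.39 and 1.95), with the uterus call lost without the same 5 arrays (0.0788 to 0.149).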

How the data were processed

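Total RNA from fresh tissue was copied into cDNA, labelled with biotin and hybridised to whole-transcript arrays, per the labels' protocols. The deposited table holds 28856 probe sets as log values, taken as log2 values. The summarisation, normalisation and log base were not stated in the labels or headers used. Every probe set had a median of 0 over the 21 female and again over the 21 male arrays, so the direction and centring come from the values and the scale stays unknown. Array medians of the vas deferens lay between -0.0538 and 0.0322. Signal over background is lost after centring, and the number of arrays limits the precision.

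The platform table gave 21789 probe sets 1 symbol, 1621 several and 5446 none, and 21698 matched RefSeq (GRCm38.p6) by gene ID. Probe sets of a gene were averaged, which gave 19938 genes, 18939 of them from 1 probe set. Linear models (limma 3.58.1, R 4.3.3, with lmFit and eBayes) were run on all 15 arrays of a tissue, without a block, and adjusted by Benjamini-Hochberg over all genes. The procedure was tested on simulated data. The p-values reflect only the variation among the arrays, part of which may be technical. With 3 against 3 arrays an exact permutation test cannot go below 0.1, so none was run. Replicate numbers did not pair the vas deferens arrays (correlations of 0.0667, -0.0336 and 0.167 between same-numbered AKDH and AHDK arrays). For WT epididymis with WT vas deferens the correlations were 0.287, 0.176 and 0.281. WT and AHDK vas deferens, which are different mice, gave -0.146, 0.334 and 0.287, so such values do not settle a pairing. In the comparison of WT epididymis with WT vas deferens the block changed 5602 calls to 5630.

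Named genes are the 6 targeted genes, the 12 largest called and non-overlapping differences in each direction (unnamed transcripts, olfactory receptors and small RNAs passed over), and up to 4 members of each of 34 gene lists and both segment lists with the smallest adjusted p. Members and lists were chosen with earlier results of these data known. Alternatives were quantile normalization, centring, the replicate block, array weights, a robust prior, a filter on spread, single probe sets, fewer arrays, list means as covariates and stricter thresholds.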

Additional observations from a re-analysis of the deposited data

Results flagged for a closer look

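The AKDH minus AHDK difference in vas deferens was set against the same difference in uterus for the 148 named genes, and it differed in 43 of them (limma contrast of differences, adjusted p below 0.05 over all genes), beside 4.6% of all genes tested. Most named genes were picked by their vas deferens difference, which is part of this contrast. The 2 shares therefore cannot be compared. In 30 of the 43 the call held in each of the 12 fits that left out 1 array. The values that follow are vas deferens less uterus on the log2 scale. Negative and called in all 12 fits were Cdkl1 (-4.78), Ptprz1 (-3.81), Akr1cl (-3.32), Eci3 (-3.15), Prm2 (-3.14), Padi2 (-2.87), Defb30 (-2.70), Prm1 (-2.66), Slc14a2 (-2.66), Crygc (-2.37), Cdh17 (-2.27), Nmu (-2.26), Id4 (-1.78), Fgfr2 (-1.22), Fzd4 (-1.15) and Tcf7l2 (-0.76). Positive and called in all 12 fits were Car2 (3.28), Cyp17a1 (2.85), Wfdc8 (2.71), S100a8 (2.59), Peg10 (2.24), Malrd1 (2.20), Defb37 (2.18), Bsph2 (2.17), Spink13 (2.17), Axin2 (2.09), Mcm7 (1.59), Cers4 (1.55), Znrf3 (1.19) and Atp6v1b1 (0.91).

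The other 13 lost the call in 1 or more of the 12 fits. Negative values were Actg2 (-1.66), Abcg2 (-1.45), Rsph4a (-1.10), Hoxa13 (-0.97) and Grhl1 (-0.68). Positive values were Cfi (2.35), Pate2 (1.94), Krt7 (1.40), Hoxd9 (1.14), Wfdc9 (1.07), Krt4 (1.07), Esam (0.96) and Shh (0.59). Abcg2 lost it without any 1 of vas deferens AKDH replicate 3, vas deferens AHDK replicate 1, uterus AKDH replicate 3, uterus AHDK replicate 2 (adjusted p 0.059 to 0.0797). Actg2 lost it without any 1 of vas deferens AKDH replicates 1, 2 or 3, vas deferens AHDK replicates 1 or 2, uterus AKDH replicates 2 or 3, uterus AHDK replicates 1 or 3 (adjusted p 0.0515 to 0.101). Cfi lost it without any 1 of vas deferens AKDH replicates 1 or 2, vas deferens AHDK replicates 1 or 2, uterus AKDH replicate 3, uterus AHDK replicates 1, 2 or 3 (adjusted p 0.0522 to 0.0829). Esam lost it without any 1 of vas deferens AKDH replicates 1 or 2, vas deferens AHDK replicates 1 or 3, uterus AKDH replicates 1 or 2, uterus AHDK replicates 1 or 3 (adjusted p 0.0607 to 0.11). Grhl1 lost it without any 1 of vas deferens AKDH replicates 2 or 3, vas deferens AHDK replicates 1 or 3, uterus AKDH replicate 1, uterus AHDK replicates 1 or 3 (adjusted p 0.0554 to 0.0844). Hoxa13 lost it without any 1 of vas deferens AKDH replicates 1 or 2, vas deferens AHDK replicate 2, uterus AKDH replicate 3, uterus AHDK replicates 1 or 3 (adjusted p 0.0508 to 0.0743). Hoxd9 lost it without any 1 of vas deferens AKDH replicates 1, 2 or 3, vas deferens AHDK replicates 1, 2 or 3, uterus AKDH replicate 1, uterus AHDK replicates 1, 2 or 3 (adjusted p 0.0632 to 0.0834). Krt4 lost it without any 1 of vas deferens AKDH replicate 1, vas deferens AHDK replicate 2, uterus AKDH replicate 3, uterus AHDK replicate 2 (adjusted p 0.0565 to 0.0619). Krt7 lost it without any 1 of vas deferens AKDH replicate 1, uterus AKDH replicate 3, uterus AHDK replicate 1 (adjusted p 0.0526 to 0.0577). Pate2 lost it without vas deferens AKDH replicate 1 (adjusted p 0.057). Rsph4a lost it without any 1 of vas deferens AKDH replicates 1, 2 or 3, vas deferens AHDK replicates 1, 2 or 3, uterus AKDH replicates 1 or 3, uterus AHDK replicates 1, 2 or 3 (adjusted p 0.0501 to 0.0866). Shh lost it without any 1 of vas deferens AKDH replicates 1, 2 or 3, vas deferens AHDK replicates 1 or 2, uterus AKDH replicates 1, 2 or 3, uterus AHDK replicates 1, 2 or 3 (adjusted p 0.0658 to 0.139). Wfdc9 lost it without any 1 of vas deferens AKDH replicates 1, 2 or 3, vas deferens AHDK replicates 1 or 2, uterus AHDK replicate 2 (adjusted p 0.0512 to 0.0853). 

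Cfi, Fgfr2, Krt7, Mcm7, Peg10, Rsph4a and Wfdc8 were not called within vas deferens.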

How the results depend on the processing

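Of the 73 named genes called between AKDH and AHDK vas deferens, 10 were called under every one of 16 alternatives (Ptprz1, Akr1cl, Eci3, Cdkl1, Itga2, Padi2, Nmu, Abcg2, Hoxd9 and Malrd1), 40 in all fits that left out 1 of the 6 arrays, and none changed sign. Hoxa9, not called, changed sign to 0.0554 after quantile normalization and 0.00855 with array weights, and ran from -0.253 to 0.159 when single arrays were left out, positive without AKDH replicate 3 (0.0538) and without AHDK replicate 2 (0.159). The 808 calls became 57 with only the 6 arrays, 1537 with the sperm list as covariate, 224 at an adjusted p below 0.01, 145 with a log2 difference of at least 1, and 436 to 742 when single arrays were left out. The replicate block gave 685, of which 625 were among the 808, and the replicate numbers did not pair the arrays. Only the arrays of a contrast left 14 vas-high and 4 epididymis-high calls, 216 uterus calls and 5 for the difference of contrasts. Array weights gave a vas-high median of -0.84, 5381 calls for AKO minus DKO, 171 for the difference of contrasts, 1620 for uterus and 2619 for vas deferens less uterus. The difference of contrasts also moved to 8 with the replicate block, 44 with single probe sets and 2 with the filter on spread. With single arrays left out, the ranges were 2078 to 2697 for AKO minus DKO, 2 to 44 for the difference of contrasts, 14 to 588 for uterus, 523 to 1262 for vas deferens less uterus, 3032 to 4708 for AKDH minus WT and 245 to 867 for AHDK minus WT. They were -1.13 to -0.90 for the vas-high median and 27 to 64 for the number of epididymis-high called genes. The cause was not tested beyond fewer arrays in a fit. Signal over background, which would show which low probe sets limit a difference, is not known.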
